A study of Terfezia claveryi
Helianthemum almeriense and Terfezia claveryi with 9 samples.

Results

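The shortest gene models of the desert truffle Terfezia claveryi, an edible fungus that lives on the roots of rockrose shrubs, were described in cultured mycelium and in mycorrhizal roots. They were chosen by length, at most 300 bases, together with at least 100 reads summed over all 9 libraries and a majority of reads assigned to 1 model only. These conditions were met by 149 of the 12765 gene models listed, or 1.74% of the 8575 models of any length that met the read and uniqueness conditions. The length of a model was solved from its deposited count and its deposited RPKM (reads scaled to model length and library total). RNA was sequenced as read pairs of 75 bases in 3 groups of 3 libraries, which the series' design text calls biological replicates.

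Free-living mycelium was a culture of strain T7 in shaken MMNo medium (75 rpm, 23 °C, darkness, 3 months). The other groups were fine roots of Helianthemum almeriense plants that had been inoculated with T. claveryi spores 3 months before treatment. Well-watered plants (ample water) were kept above 75% soil moisture, while in drought-stressed plants moisture was brought to 40% until shoot water potential fell below -2 MPa. Each RNA came from 100 mg of tissue. The cultures thus stand for 1 strain grown without a plant, whereas the roots carried fungus raised from spores, so strain, growth medium and contact with a host cannot be told apart between cultures and roots. Whether each short model is present in the genome of the fungus in each group was not tested. The labels do not say how many plants went into a library, and p-values measure the spread between these samples.

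Terfezia and Helianthemum form an ectendomycorrhiza, a root symbiosis in which hyphae grow both between and inside the cells of the root cortex and trade soil nutrients and water for plant sugars. Very short gene models can stand for small proteins, a class that in mycorrhizal fungi includes small secreted proteins made in contact with the plant. They can also be fragments of longer genes or predictions without a protein product. Which of these applies to the models described here is not known, because the files do not pair their Tercla1 identifiers with names, products, positions or sequences.

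Lengths of the short models lay between 156 and 300 bases (median 252). There were 6 of exactly 300 bases, and the next models that met the other conditions, 5 in number, had 303. Another 178 models of at most 300 bases had a read but fewer than 100. The members nearest that limit had 101 and 102 reads, and the models just below it had 92 and 90. The uniqueness condition removed 11 models, of which 8 had no unique read at all, and the highest unique share among the removed was 48.8%. In 127 of the 149 members every read was unique, and in 5 the share was under 95%. The lowest shares were 67.4%, in a model of 219 bases, and 78.8%, in a model of 291 bases. Cultures gave 75.0% of all reads of the short models, and 131 members had 100 reads in the cultures alone, against 75 in drought roots and 31 in well-watered roots. Membership therefore leans towards models read in culture.

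Libraries held 15855363 to 31854784 total gene reads in cultures, 869998 to 1635015 in well-watered roots and 3493361 to 5470044 in drought roots, so depth was tied to group in every comparison. Levels are given as CPM, the reads of a model per 1000000 total gene reads of its library. A model without a read in a group lies below 3 counts over that group, which is 0.0386 CPM in cultures, 0.781 CPM under ample water and 0.240 CPM under drought. Such limits cover counting error only. In roots the total counts only reads assigned to fungal gene models, and whether plant reads were among them was not tested. Fewer fungal cells and less RNA per cell cannot be told apart.

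Short models held about 1 read in 100 of the fungal reads of drought roots and fewer elsewhere. Their share was 0.587%, 0.665% and 0.621% of total gene reads in the cultures, 0.484%, 0.505% and 0.535% in well-watered roots, and 1.14%, 1.27% and 1.06% in drought roots. Means over 3 libraries were 0.624 ± 0.0389% (SD) for cultures, 0.508 ± 0.0252% for the well-watered group and 1.16 ± 0.108% for the drought group. Every drought library lay above every other library, and every well-watered library lay below every culture. A few members carried much of each sum. The pair with the highest CPM held 41.6% of the short models' CPM in cultures, 50.1% with ample water and 43.1% under drought. The most abundant members of cultures, of well-watered roots and of drought roots are different models. With all of them left out of every group, the shares were 0.359% in cultures, 0.251% with ample water and 0.560% under drought. The drought share thus stayed the highest at a lower level. With a length limit of 400 bases the shares were 1.84%, 1.61% and 4.06% in the same order. A higher share under drought was thus not particular to models of at most 300 bases.

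**Figure D1:**
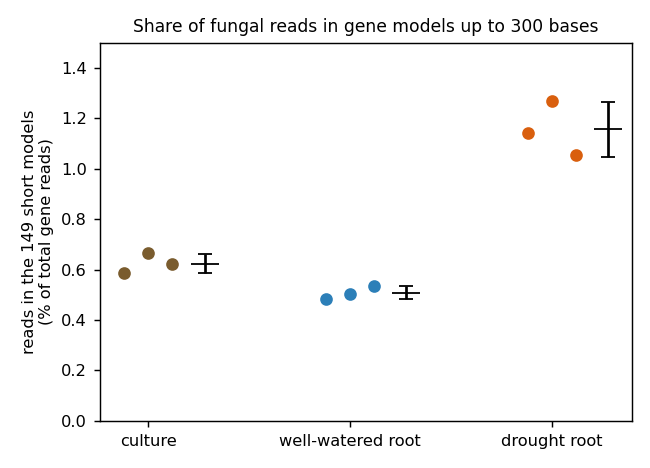
Percent of total gene reads that fell in the 149 short gene models, on a linear axis from 0, for each of the 9 libraries (points) with the mean and SD of each group of 3. The drought libraries sit between 1.06% and 1.27%, above the cultures (0.587% to 0.665%) and the well-watered roots (0.484% to 0.535%).

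The minimum of 100 reads keeps a short model only at a higher level per length than a long one, so levels per length are given as a description of the members. The median of their mean RPKM was 32.8 in cultures, 26.9 with ample water and 38.1 under drought. Over all 8575 models that met the read and uniqueness conditions, the medians were 29.7, 25.4 and 30.8 RPKM in the same order. Among the 100 models with the highest mean RPKM in a group, 4 were short in cultures, 3 with ample water and 9 under drought. A short model collects few reads at a given RPKM, and its replicates were farther apart than those of all models together. The median SD of log2(CPM + 1) among the 3 libraries of a group was 0.20 for short models against 0.15 for all in cultures, 0.61 against 0.47 in well-watered roots, and 0.64 against 0.43 in drought roots. Models of 301 to 600 bases had 0.18, 0.61 and 0.60 in the same order, so this spread was not particular to the short models.

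How many short models were seen differed between the groups, whose depths also differed. Between 146 and 148 of the 149 had a read in each culture, 115 to 128 in each well-watered library and 119 to 137 in each drought library. At least 10 reads in every library of the group were reached by 141 members in cultures, 53 with ample water and 85 under drought. When every library was thinned to the reads of the shallowest, these counts became 52, 46 and 45, so the order of the groups did not remain. No read in any library of a group was found for 1 member in cultures, 11 with ample water and 8 under drought. Of the 11 without a read in well-watered roots, 8 were read in drought roots, and 3 of these had at least 10 reads in every drought library. A total of 85 members had a read in all 9 libraries, and 47 had at least 10 reads in each.

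**Figure D2:**
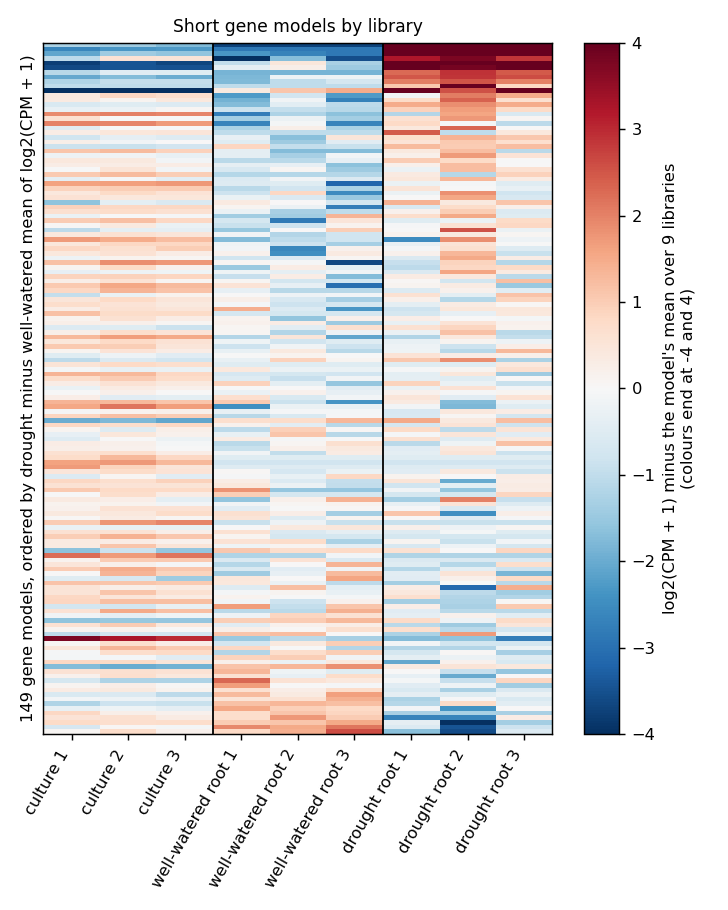
Each row is 1 of the 149 short gene models and each column 1 library; colour shows log2(CPM + 1) minus the model's own mean over the 9 libraries, ending at -4 and 4. Rows are ordered by the difference between drought and well-watered means, so the blocks at both ends are set by that order; 12 models passed the test as higher under drought and 2 as lower.

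Drought was compared with ample water in roots of the same host. Of the 149 short models, 97 could be tested and 52 had too few reads, the best covered of these 52 with 159 reads over the 6 libraries. Among those tested, 12 were higher in drought roots (12.4%), against 9.53% of all 8029 models tested. Lower in drought roots were 2 (2.06%), against 10.2% of all models tested. In either direction 14 passed (14.4%), against 19.8% of all tested. A call means an adjusted p under 0.05 in edgeR's quasi-likelihood test, with Benjamini-Hochberg adjustment over all models tested. The median log2 fold change was 0.13 for the short models tested and 0.08 for all models tested. An unadjusted p under 0.05 was reached by 24 short models.

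The rises were large. By fitted fold change, 7 of the 97 tested rose at least 16-fold (7.22%), against 1.61% of all models tested, and none fell that far, against 0.834%. With all libraries, the measured ratios or lower bounds of the 7 were also above 16. Of the 97 tested, 3 had no well-watered read and passed the filter on low counts only through drought roots. All 3 were called higher and are among the 7, and their fitted fold changes are no bounds. The 8 members without a drought read had at most 3.58 CPM in well-watered roots, and none of them was tested. Large rises and large falls were thus not open to the test on equal terms. Read shares of the models split by call are a description, because the same libraries gave the calls. A rise of the summed share in the 12, and little change in the rest, follow from that choice. The 12 that rose took 0.0244 ± 0.00521% of total gene reads with ample water and 0.695 ± 0.103% under drought (SD, n = 3 each). The 83 tested members that did not pass took 0.467 ± 0.0185% and 0.447 ± 0.0123% in the same order. With the 12 set aside, the remaining 137 members took 0.484 ± 0.0215% in well-watered roots, 0.461 ± 0.0106% in drought roots and 0.601 ± 0.0360% in cultures.

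The highest level under drought was that of jgi|Tercla1|1270260|, a model of 270 bases whose reads were all unique. Its level was 42.1, 67.4 and 60.8 CPM in the cultures, 35.2, 27.5 and 24.1 CPM under ample water, and 3622, 4558 and 3052 CPM under drought. All drought libraries stood far above all others, and the well-watered libraries lay below the cultures. Its mean in drought roots was 129-fold that in well-watered roots, on the log2 scale 6.86 ± 0.41 (SE), with an edgeR adjusted p of 1.37e-05. It alone gave 0.374 ± 0.0760% of total gene reads in drought roots (SD, n = 3), and the 11 others that rose gave 0.321 ± 0.0274%. Per length it reached 13867 ± 2816 RPKM in drought roots.

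Rises over a group without a read are known only as lower bounds, which do not rank them. The highest bound was that of jgi|Tercla1|1084858|, of 198 bases. It had 4.48, 3.89 and 2.83 CPM in the cultures, not one well-watered read, and 295, 1023 and 360 CPM in drought roots. The drought libraries stood apart from both other groups, and drought library 2 was the highest of them. Against the limit of 3 counts over the well-watered group the rise was at least 665-fold (edgeR adjusted p 0.000177). The bound was 410-fold without drought library 2, and 434-fold or 382-fold without well-watered library 1 or 2.

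The other model named for its rise, jgi|Tercla1|1265040|, had 300 bases, the length limit itself. It had 0.189, 0.471 and 0.533 CPM in the cultures, no read in well-watered roots, and 241, 443 and 210 CPM in drought roots. It was thus barely read outside drought roots, where it was at least 371-fold higher than in well-watered roots (edgeR adjusted p 5.32e-05). The bound was 242-fold or 213-fold without well-watered library 1 or 2. One more model without a well-watered read, of 285 bases, reached 16.3, 26.0 and 18.9 CPM in drought roots, at least 25.3-fold higher, or 16.5-fold and 14.5-fold without well-watered library 1 or 2.

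A short model of 165 bases, jgi|Tercla1|1276449|, was higher in each kind of root than in cultures and higher again under drought. Its level was 0.126, 0.251 and 0.50 CPM in the cultures, 52.5, 86.8 and 113 CPM under ample water, and 1058, 238 and 1011 CPM under drought. The groups did not overlap, but drought library 2 was far below the other drought libraries. Drought roots held 9.15-fold the well-watered mean (log2 fold change 3.05 ± 0.57 SE, edgeR adjusted p 0.00482).

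The members with the lowest unique shares also rose. jgi|Tercla1|1274557|, of 219 bases, had 0, 0.126 and 0.10 CPM in the cultures, 8.25, 13.5 and 3.45 CPM under ample water, and 226, 172 and 209 CPM under drought. The drought mean was 24.1-fold the well-watered mean (log2 fold change 4.36 ± 0.43 SE, edgeR adjusted p 0.000125). The other, of 291 bases, rose from 6.0, 17.7 and 4.6 CPM in well-watered roots to 287, 222 and 277 CPM in drought roots, 27.7-fold, or 49.5-fold without well-watered library 2. Of the reads counted over drought roots, 838 of 2575 for the first and 707 of 3324 for the second were not unique. Which other models these reads fit is not recorded, so both levels are uncertain. With unique gene reads alone the log2 fold changes were 4.39 and 4.44, and both calls were kept.

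The remaining 5 that rose had 174 to 273 bases and were read in cultures as well. A model of 174 bases went from 27.0, 45.9 and 57.5 CPM in well-watered roots to 393, 538 and 387 CPM under drought. That is a rise of 10.1-fold. Models of 273 bases rose 9.89-fold and 6.42-fold. jgi|Tercla1|1092548|, of 204 bases, rose 95.8-fold, but it had 0, 6.73 and 1.15 CPM in the well-watered libraries, and without library 2 of these the ratio was 438. jgi|Tercla1|1158650|, of 268 bases, rose 4.53-fold, the smallest ratio among the 12. These last identifiers were singled out after their values were seen. None of the 12 overlapped between the groups, and the 12 were called whichever single library was left out.

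The number that fell was less secure than the number that rose. It was 2 here, 8 with DESeq2's Wald test, 8 in a joint fit of all 9 libraries, 4 without drought library 2, 1 without well-watered library 1 and 0 without well-watered library 2 or 3. jgi|Tercla1|1081398|, of 252 bases, had 19.5, 31.2 and 71.3 CPM under ample water and 2.74, 0 and 7.16 CPM under drought, a ratio of 12.3 (log2 fold change -3.76 ± 1.00 SE, edgeR adjusted p 0.0258). The ratio was 29.6 without drought library 3 and 7.68 without well-watered library 3. jgi|Tercla1|1193669|, of 246 bases, had 40.5, 29.97 and 47.1 CPM under ample water and 6.40, 0 and 5.15 CPM under drought, a ratio of 10.2 (log2 fold change -3.42 ± 0.90 SE, edgeR adjusted p 0.0243). Neither overlapped between the groups, and drought library 2 held no read of either. The call of the first was lost without well-watered library 2, well-watered library 3 or drought library 1, with adjusted p of 0.0710, 0.146 and 0.0866. The call of the second was lost without any single well-watered library or without drought library 3, with adjusted p of 0.0625 to 0.0974.

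Among the 83 tested without a call, fitted log2 fold changes ran from -2.79 to 2.82. Counting levels without a test, 25 of the 97 tested had every drought library above every well-watered library (25.8%), against 25.5% of all models tested. The reverse order held for 13 (13.4%), against 17.0%. By this count the short models stood near the background in both directions. In drought library 2, 74 members (49.7%) were higher than in both other drought libraries, against 42.7% of all models that met the read and uniqueness conditions. The corresponding value for culture 2 was 81 members (54.4%), against 32.9%.

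**Figure D3:**
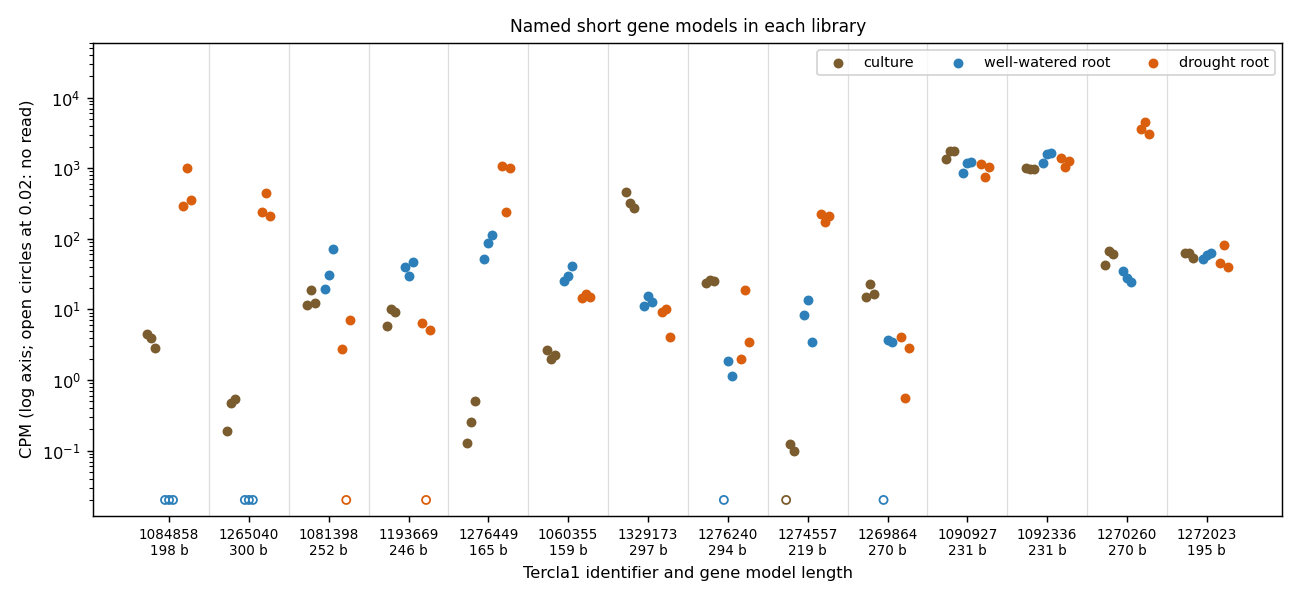
CPM of the named short gene models in each of the 9 libraries on a log axis, coloured by group; open circles at 0.02 mark libraries with no read. Model 1270260 reaches 3052 to 4558 CPM in drought roots and 24.1 to 35.2 CPM in well-watered roots, while model 1272023 stays between 39.8 and 82.7 CPM in all libraries.

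Well-watered roots were then compared with free-living mycelium, in which 142 short models were tested and 7 were not. Higher in roots were 23 (16.2%), against 24.4% of 8919 models tested, and lower were 37 (26.1%), against 24.5%. Together 60 passed (42.3%), against 48.9% of all tested. The median log2 fold change was -0.45 for the short models tested, -0.29 for models of 301 to 600 bases and -0.11 for all models tested. Without normalization beyond total counts the median of all models was -0.31, with 20 short models higher and 43 lower. Leaving out any single culture gave 11 to 12 higher and 15 to 22 lower, and leaving out well-watered library 3 gave 15 higher.

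Among the short models higher in well-watered roots, model 1276449, described above, showed the largest rise, 287-fold (log2 fold change 8.23 ± 0.53 SE, edgeR adjusted p 1.91e-05). Its culture level rested on 25 reads over 3 libraries, and the ratio was 445 without culture 3. jgi|Tercla1|1060355|, of 159 bases, had 2.65, 2.01 and 2.23 CPM in the cultures, 25.5, 29.4 and 41.4 CPM in well-watered roots, and 14.4, 16.4 and 15.2 CPM in drought roots. All 3 groups were apart, with well-watered roots the highest at 14.0-fold the culture mean (log2 fold change 4.01 ± 0.36 SE, edgeR adjusted p 6.67e-05). Its difference between the root groups did not pass the test. The members with the lowest unique shares rose as well, the model of 219 bases from 7 culture reads and that of 291 bases from 10. Across the 23, fitted log2 fold changes ran from 0.64 to 8.23 with a median of 2.39.

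Models lower in well-watered roots were led by jgi|Tercla1|1329173|, of 297 bases. It had 464, 326 and 272 CPM in the cultures, 11.2, 15.3 and 12.6 CPM in well-watered roots, and 9.32, 10.2 and 4.01 CPM in drought roots. Cultures were above all root libraries, 27.1-fold against well-watered roots (log2 fold change -4.53 ± 0.29 SE, edgeR adjusted p 1.91e-05). jgi|Tercla1|1276240|, of 294 bases, had 23.9, 26.1 and 25.04 CPM in the cultures, 0, 1.83 and 1.15 CPM in well-watered roots, and 2.01, 18.9 and 3.44 CPM in drought roots. Cultures were 25.1-fold higher than well-watered roots (log2 fold change -4.37 ± 0.59 SE, edgeR adjusted p 0.000579), although only 4 well-watered reads stood behind this ratio and it was 43.5 without library 2 and 16.8 without library 1. Another 6 of the 37 had no read in well-watered roots, and for these the bounds were only 2.26-fold to 5.10-fold, the limit being high at that depth. They were 1.30-fold to 2.93-fold without well-watered library 2 and 1.47-fold to 3.33-fold without library 1. Without a test, 22 members had every well-watered library above every culture (15.5%) and 60 had every one below (42.3%), against 23.3% and 39.6% of all models tested.

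Drought roots against cultures gave 147 short models tested and 2 not tested. Higher in drought roots were 24 (16.3%), against 21.4% of 9001 models tested, and lower were 30 (20.4%), against 21.8%. In either direction 54 passed (36.7%), against 43.2% of all tested. The median log2 fold change was -0.32 for the short models tested and -0.05 for all models tested. For models of 301 to 600 bases it was -0.27, so a median below that of all models was not particular to the short ones. Every drought library was above every culture for 32 members (21.8%), against 27.2% of all models tested, and below every culture for 56 (38.1%), against 32.4%. Without any single culture 11 to 17 were lower, and without drought library 2 there were 51. This comparison and the previous one share the 3 cultures, so their lists are not independent.

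The largest ratios of any short model were met here. Model 1274557 had 2690-fold the culture mean in drought roots (log2 fold change 11.02 ± 0.45 SE, edgeR adjusted p 2.18e-05). With 7 culture reads, the ratio of pooled reads was 2286 with an exact 95% interval of 1108 to 5690, and the ratio of means was 1793 without culture 1 and 4045 without culture 2. Model 1276449 had 2629-fold the culture mean (log2 fold change 11.23 ± 0.91 SE, edgeR adjusted p 0.000170), or 4076-fold without culture 3. Models 1265040, 1084858 and 1270260 were 750-fold, 150-fold and 66.0-fold above the culture mean, and for model 1084858 the ratio was 87.6 without drought library 2. One short model of 288 bases had no read in cultures or with ample water but 3.29, 37.2 and 2.58 CPM in drought roots. It was called higher than in cultures, at least 329-fold (edgeR adjusted p 0.0110), but most of its reads came from drought library 2. The bound was 78.0-fold without that library and 194-fold or 202-fold without culture 2 or 3, and it had too few reads to be tested between the root groups.

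In the other direction, model 1329173 was 45.2-fold lower under drought than in cultures (log2 fold change -5.50 ± 0.39 SE, edgeR adjusted p 9.92e-05). Its difference between the root groups did not pass the test. jgi|Tercla1|1269864|, of 270 bases, had 14.8, 22.9 and 16.5 CPM in the cultures, 0, 3.67 and 3.45 CPM in well-watered roots, and 4.02, 0.564 and 2.86 CPM in drought roots. Cultures lay above all root libraries, and the root groups overlapped. The drop was 7.28-fold (log2 fold change -2.81 ± 0.65 SE, edgeR adjusted p 0.0122), and its adjusted p was 0.0585 without culture 2. Another 7 of the 30 had no read in drought roots, with bounds of 7.46-fold to 34.3-fold, or 4.20-fold to 19.3-fold without drought library 1.

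**Figure D4:**
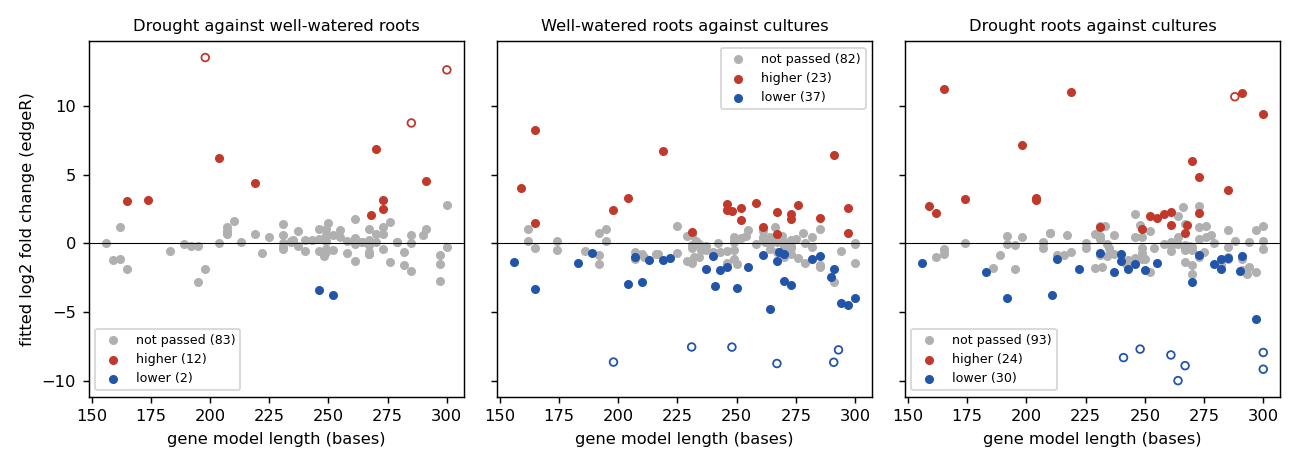
Fitted log2 fold change (vertical axis) against gene model length in bases (horizontal axis) for the short models tested in each comparison, with called models coloured and open markers for models with no read in a group, whose fitted value is no bound. In the drought against well-watered panel 12 called points lie above 0 and 2 below, spread from 165 to 300 bases.

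The most abundant short models of cultures and well-watered roots differed less between groups. jgi|Tercla1|1090927|, of 231 bases, had 1332, 1757 and 1764 CPM in the cultures, 858, 1183 and 1221 CPM under ample water, and 1156, 756 and 1030 CPM under drought. It was lower in drought roots than in cultures, 1.65-fold (edgeR adjusted p 0.0442), and the call was lost without drought library 3, culture 2 or culture 3, with adjusted p of 0.0813, 0.118 and 0.133. jgi|Tercla1|1092336|, also of 231 bases, had 993, 973 and 978 CPM in the cultures, 1181, 1565 and 1631 CPM under ample water, and 1392, 1037 and 1284 CPM under drought. It was 1.49-fold higher in well-watered roots than in cultures (edgeR adjusted p 0.0156), and the call was lost without well-watered library 2 or 3 or culture 2 or 3, with adjusted p of 0.0549 to 0.0617. Per length they reached 7004 ± 1071 and 4248 ± 46.6 RPKM in cultures and 4706 ± 864 and 6316 ± 1050 RPKM in well-watered roots (SD, n = 3 each). Their order was thus the reverse in roots.

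Among members with at least 10 CPM in every group, the smallest range of group means belonged to jgi|Tercla1|1272023|, of 195 bases. It had 63.0, 62.5 and 53.0 CPM in the cultures, 51.7, 59.9 and 62.1 CPM in well-watered roots, and 45.7, 82.7 and 39.8 CPM in drought roots. The groups overlapped, their means on the log2(CPM + 1) scale lay within 0.15 of each other, and it passed no comparison. Its libraries were not equally close, and without drought library 2 it was lower in drought roots than in cultures (edgeR adjusted p 0.0349).

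Combinations of calls were counted for the short models alone, without the share over all models, so they describe the members only. Read across the comparisons, 36 members were tested in all 3 and passed none. Another 14 were lower than in cultures in both kinds of root and did not pass between them, and 7 more were lower in both with too few reads to be tested between them. Those higher in both without passing between them were 5. Of the 12 that rose under drought, 4 were also higher in well-watered roots than in cultures, 4 were lower there, 2 did not pass and 2 were not tested. All 12 were higher in drought roots than in cultures. Any 2 of the comparisons share a group of 3 libraries, so these combinations of calls are not independent. Both models that fell under drought were higher in well-watered roots than in cultures and did not pass between drought roots and cultures. For model 1081398 the rise over cultures was 2.89-fold, or 1.80-fold without well-watered library 3, and its call was lost without that library, culture 1 or culture 3, with edgeR adjusted p of 0.0610 to 0.0668.

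Calls in longer models were set beside those in short ones. In drought against well-watered roots, 8.50% of models of 301 to 600 bases were higher and 6.13% lower. Among those of 601 to 1200 bases the values were 9.45% and 8.19%, and above 1200 bases they were 10.1% and 11.9%. The share called lower was thus smaller in each shorter class. The median SE of the log2 fold change was 0.60 for short models, 0.57, 0.47 and 0.37 for the longer classes in order, widest for the short models. In well-watered roots against cultures the share called higher went from 16.2% in short models through 15.7% and 19.9% to 27.6% in the longest class, while the share called lower lay between 24.3% and 26.1%. Whether a model not much longer than a read loses counts for that reason was not tested.

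**Figure D5:**
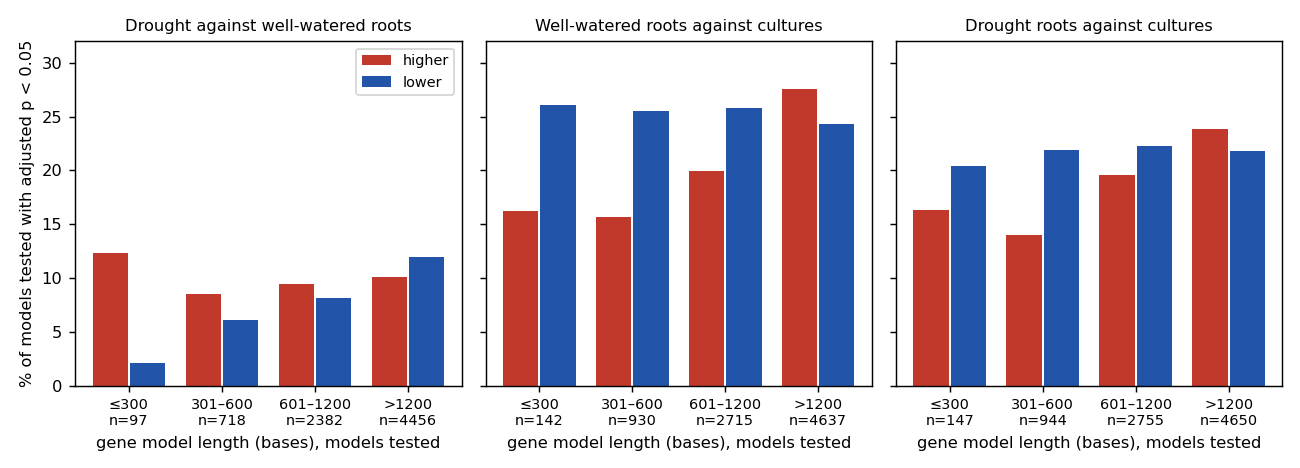
Percent of tested gene models called higher or lower (edgeR adjusted p under 0.05) by length class in each comparison, on an axis from 0. In drought against well-watered roots the lower bar goes from 2.06% in models up to 300 bases to 11.9% above 1200 bases, while the higher bars lie between 8.50% and 12.4%.

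Within the short models, counts are given by length without a test of their difference. Of the 14 members of 156 to 200 bases tested between the root groups, 3 rose and none fell. Of the 35 of 201 to 250 bases, 2 rose and 1 fell, and of the 48 of 251 to 300 bases, 7 rose and 1 fell. Against cultures, the numbers higher and lower in well-watered roots were 4 and 5 of 20, 6 and 14 of 52, and 13 and 18 of 70 in the same order of length. For drought roots against cultures they were 5 and 3 of 20, 5 and 12 of 52, and 14 and 15 of 75. Over all models tested, 9.53% rose and 10.2% fell between the root groups. Against cultures, 24.4% of all models tested were higher and 24.5% lower in well-watered roots, and 21.4% and 21.8% in drought roots.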

How the data were processed

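RNA sequencing of 9 libraries in 3 groups was analysed. Per the file headers, the authors deposited for each library unique and total gene reads (counts per gene model) and RPKM. Per the submitters' processing notes, FastQC, Bowtie2 2.3.0 and SAMtools 1.7 were used; the counting program, its strand setting and the genome build (not given in the sources used here) could not be checked. Lengths were solved from total gene reads, library totals and RPKM, and were whole numbers within a relative tolerance of 1e-06. Members and lists were chosen with earlier results of these data known.

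Each pair of groups was fitted on total gene reads of its 6 libraries with edgeR 4.0.16 in R 4.3.3 (filterByExpr, TMM, robust quasi-likelihood F test, Benjamini-Hochberg adjustment over all models tested, threshold 0.05); short models were then read off, with no test over the list. SEs were derived from the F statistic. The step was tested on simulated counts. A filter on low counts passes some models only through the group where they are high, so the counts and medians of tested short models describe those tested, not all 149. CPM used library totals. A group without a read was set to 3 counts over the group, and intervals are exact Clopper-Pearson. Correlations of deviations were -0.055 to 0.074 between same-numbered libraries and -0.073 to 0.088 between the others, so libraries were not paired in the main fits. These values cannot tell whether same-numbered libraries were grown or processed together.

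Named models were, per comparison, the 2 largest rises and 2 largest falls in the ratio of mean CPM among called models whose higher group had a mean of at least 10 CPM and did not overlap the other; the 2 with the highest mean CPM per group; and the one with the smallest range of group means. Alternatives included DESeq2 1.42.0, other scaling and filters, thinning, a replicate block, unique gene reads, other limits on length and reads, and leaving out each library.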

Additional observations from a re-analysis of the deposited data

Results flagged for a closer look

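Short models were singled out where drought and well-watered roots differed from the same cultures in opposite directions and the direct test between the root groups also passed. The comparisons share the 3 cultures, and fold changes are those of edgeR's quasi-likelihood fits. For jgi|Tercla1|1084858| the log2 fold change was -8.65 in well-watered roots against cultures (a bound of 4.61-fold lower, or 3.01-fold and 2.65-fold without well-watered library 1 or 2), 7.18 in drought roots against cultures and 13.52 between drought and well-watered roots; the first could not be tested when any culture was left out. For jgi|Tercla1|1270260| these values were -0.76, 6.02 and 6.86, and the first call was lost without culture 2 or 3 or well-watered library 2 or 3, with edgeR adjusted p of 0.0868 to 0.179. For jgi|Tercla1|1092548| they were -2.98, 3.15 and 6.21, and the first call was lost without culture 2 or 3 or well-watered library 3, with edgeR adjusted p of 0.0617 to 0.0709. For jgi|Tercla1|1158650| they were -0.64, 1.29 and 2.02, and the first call was lost without any single culture or without well-watered library 3, with edgeR adjusted p of 0.0541 to 0.192. The calls of these 4 models in drought roots, against either other group, were kept whichever single library was left out.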

How the results depend on the processing

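No fold change of a named model reversed in the comparison it was named for. Between drought and well-watered roots, the 12 short models higher remained among those called under every scaling, filter, tool, replicate block and left-out library, with 12 to 13 when 1 library was left out; thinning every library to the shallowest kept 11 of them among 12. The number lower moved most: 2 became 8 with DESeq2's Wald test, 8 in a joint fit of all 9 libraries, 0 at an adjusted p under 0.01 and 0 to 4 when 1 library was left out. Against cultures, 23 higher and 37 lower in well-watered roots became 14 and 22 in the joint fit, 11 and 18 after thinning, and 13 and 15 at an adjusted p under 0.01, with 11 to 23 higher and 15 to 46 lower when 1 library was left out. For drought roots, 24 higher and 30 lower became 20 and 15 after thinning, 21 and 20 in the joint fit, 17 and 11 at an adjusted p under 0.01, 19 and 11 to 17 without any single culture, and 29 and 51 without drought library 2. The higher part of the calls thus went from 44.4% to 57.1% after thinning and 63.3% without culture 2, so which direction held more calls changed. Calls over all models tested moved as well. Their 1926 higher and 1958 lower in drought roots became 1587 and 1419 after thinning. They were 1249 and 1267 without culture 2, and 2707 and 2994 without drought library 2. The cause of these changes was not tested.

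With the replicate block the counts higher and lower were 12 and 3 between root groups, 15 and 30 for well-watered roots and 21 and 19 for drought roots against cultures. Whether the replicate numbers pair the libraries is not known.

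A length limit of 250 bases gave 5 higher and 1 lower between root groups, 10 and 19 for well-watered roots and 10 and 15 for drought roots against cultures. A limit of 400 bases gave 27 and 13, 63 and 93, and 58 and 76. Such counts change with the size of the list. Over all models tested, 9.53% were higher and 10.2% lower between root groups. Against cultures the values were 24.4% and 24.5% for well-watered roots, and 21.4% and 21.8% for drought roots. A minimum of 1000 reads gave 1 lower between root groups and 11 higher in well-watered roots than in cultures. The share of reads in cultures, well-watered and drought roots was 0.440%, 0.386% and 0.571% up to 250 bases, and 1.84%, 1.61% and 4.06% up to 400 bases. With the most abundant members of the groups all left out of every group, it was 0.359%, 0.251% and 0.560%. It was 0.470% in well-watered roots with a minimum of 1000 reads. Members with at least 10 reads in every library were 52 of 141 in cultures and 45 of 85 in drought roots after thinning, and members without a culture read went from 1 to 6. At a minimum of 30 reads, 20 short models were read in every well-watered library.

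In the comparisons for which models were named by their rise or fall, each model was refitted under every alternative. Counted over models and alternatives together, 159 refits kept direction and call and 8 lost the call. All 8 losses came when 1 library was left out, in models 1081398, 1193669 and 1269864. Losses in other comparisons stand beside each model. Well-watered roots had the fewest reads, so their zeros and ratios are the least exact.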

Other observations

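Lengths divisible by 3, as in a coding sequence without untranslated ends, were more frequent among short models than among longer ones. They made up 127 of the 149 (85.2%), against 72.4% of models of 301 to 600 bases, 61.4% of those of 601 to 1200 bases and 61.4% of longer ones. The exceptions were concentrated by identifier. Of the 22 short models with another length, 21 had identifier numbers from 1150521 to 1228374, a range that held 35 short models, and only 1 of the 114 short models outside it had such a length. Among all models that met the read and uniqueness conditions, 68.4% in this range and 26.1% outside it had a length not divisible by 3. The range was drawn from the short models' own values, so these counts are a description.

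The 22 short models with other lengths were read at lower levels. The median of their mean CPM was 2.15 in cultures, 1.65 with ample water and 2.03 under drought, against 9.09, 10.1 and 11.9 CPM for the 127 others. Between the root groups 17 of the 22 had too few reads to be tested, against 35 of the 127, and 1 of the 12 models that rose under drought was among them, model 1158650 of 268 bases.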
